A study of Mus musculus with 6 samples.

Results

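Integrins are paired receptors of the cell surface, each made of 1 alpha and 1 beta chain, that hold a cell to the matrix around it. In the wall of the aorta they tie smooth muscle cells and fibroblasts to fibronectin, laminin, collagen and related proteins, and their tails bind talin, kindlin and other adaptors that lead to the actin filaments. The alpha chain largely sets which ligand is bound, and a beta chain such as Itgb1 can pair with many alpha chains. The genes described here are 10 matrix-binding subunits known from smooth muscle and fibroblasts, namely the 7 alpha chains Itga1, Itga3, Itga5, Itga7, Itga8, Itga9 and Itgav and the 3 beta chains Itgb1, Itgb3 and Itgb5. They were taken by symbol from a count table of 55335 genes, where each symbol matched 1 gene. The other integrin subunits made up 17 rows of that table.

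RNA came from whole aorta of wild-type C57BL/6 mice (written c57b6l in the labels), with 3 mice at 6 weeks of age (young) and 3 mice at 6 months (aged), no treatment, and 1 library per mouse. The mice were described as male, and the fat around the vessel was dissected away before freezing. Age was the only difference given between the groups. The authors counted reads per gene, and the counts are given below as CPM, each count divided by the size of its library, which edgeR's TMM factors correct for a few abundant genes taking a large share, and brought to the same round total. Where levels are compared between genes, the deposited FPKM are used, which also divide by gene length. In whole tissue, fewer cells of a type and less RNA per cell cannot be told apart.

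Total counts lay between 31049632 and 45832185 per library, and 16612 genes passed the filter on low counts, all 10 integrin genes among them. A pair of libraries stood apart. Young replicate 1 had 14806 counts of Xist, the RNA that silences an X chromosome in female cells, against 7 to 24 in the other libraries, which goes against a male mouse, and its summed cardiac muscle markers were at 266 CPM against 40.5 to 56.9 elsewhere. Aged replicate 2 lay at -13.4 on the axis of greatest variation among libraries (30.1% of variance), nearer to young replicate 1 at -10.3 than to the other aged libraries at 53.8 and 62.7, and its summed brown fat markers were at 1819 CPM against 69.6 to 532 elsewhere. Smooth muscle markers such as Acta2 and Myh11 were high in every library, with summed levels of 27985 to 40198 CPM. Genes of the mitochondrial genome took 14.9% to 21.2% of counts in young and 23.1% to 30.4% in aged aorta.

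The stretches of DNA just before the transcription start are shown for 5 of the genes, chosen because the results below turn on them: Itgb1, the steadiest of the 10 across mice, Itgav, the least steady, Itga8, the most abundant alpha chain, and Itga9 and Itga3, which had lower levels in every aged mouse than in any young mouse. Sequences are from RefSeq on build GRCm38.p6, written 5′ to 3′ on the strand of the gene. They hold up to 250 bases before the start site of RefSeq, with bases that lie in an annotated exon removed. Capitals mark a GC box (GGGCGG, or CCGCCC on the other strand) or an MCAT site (CATTCC, or GGAATG on the other strand), the motifs known to be read by Sp and TEAD factors.
Itgb1 (chr8:128685404-128685653, + strand): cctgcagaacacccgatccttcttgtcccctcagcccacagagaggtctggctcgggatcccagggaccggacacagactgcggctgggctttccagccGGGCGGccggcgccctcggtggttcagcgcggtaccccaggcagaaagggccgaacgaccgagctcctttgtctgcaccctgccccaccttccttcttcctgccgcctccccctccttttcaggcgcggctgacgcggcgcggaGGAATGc
Itgav (chr2:83724147-83724396, + strand): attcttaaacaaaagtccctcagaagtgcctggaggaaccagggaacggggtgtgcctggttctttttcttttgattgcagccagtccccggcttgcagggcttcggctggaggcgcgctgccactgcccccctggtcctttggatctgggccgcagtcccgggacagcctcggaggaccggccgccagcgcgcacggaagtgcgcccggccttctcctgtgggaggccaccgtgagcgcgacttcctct
Itga8 (chr2:12301945-12302194, - strand): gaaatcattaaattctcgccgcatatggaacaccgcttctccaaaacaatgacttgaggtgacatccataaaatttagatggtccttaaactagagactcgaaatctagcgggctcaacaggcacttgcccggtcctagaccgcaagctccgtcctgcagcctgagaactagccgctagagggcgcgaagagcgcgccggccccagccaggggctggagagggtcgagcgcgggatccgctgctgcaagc
Itga9 (chr9:118711442-118711656, + strand): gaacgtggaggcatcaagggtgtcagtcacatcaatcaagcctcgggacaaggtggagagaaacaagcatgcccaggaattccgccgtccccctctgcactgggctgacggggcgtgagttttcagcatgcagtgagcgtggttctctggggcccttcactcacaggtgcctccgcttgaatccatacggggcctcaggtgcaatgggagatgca
Itga3 (chr11:95076802-95076964, - strand): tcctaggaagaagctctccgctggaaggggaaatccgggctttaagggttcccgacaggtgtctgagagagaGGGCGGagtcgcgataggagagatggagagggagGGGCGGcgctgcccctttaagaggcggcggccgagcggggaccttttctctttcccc

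Promoter windows were held for 8 of the 10 genes, in 9 windows, since Itga3 has a pair of start sites. Itga7 and Itgb3 had no entry. The GC box stood in the 250-base windows of 4 genes (Itga3, Itga5, Itgb1 and Itgb5), where 32.7% of 32851 mouse windows of that length hold it. The MCAT site stood in the window of Itgb1 alone, against 12.6% of all windows. No window held the CArG box, by which serum response factor binds (1.47% of all windows), a TATAAA sequence (12.4%) or the AP-1 site TGANTCA (6.75%). All motifs were searched on both strands, and a match or its absence describes these letters only. The Itga9 start site of RefSeq, at 118711692, lies within the gene as GENCODE M21 draws it, which begins far upstream at 118606690. The Itga9 window is thus not the stretch before the GENCODE start, which was not searched.

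By FPKM, the beta chain Itgb1 and the alpha chain Itga8 stood far above the other subunits. Itgb1, the common partner of most matrix-binding alpha chains, averaged 325 FPKM over the 6 libraries and ranged from 287 to 382. Itga8, which pairs with Itgb1 to bind nephronectin and other RGD proteins and is known from contractile smooth muscle, averaged 288 FPKM with a range of 199.7 to 367. Itgb1 exceeded Itga8 in 6 of 6 libraries, although their ranges overlapped. The next level was held by Itgb5 at 141 FPKM and Itga5 at 95.2 FPKM, whose order held in 4 of 6 libraries. Itga9 followed at 65.5 FPKM, below Itga5 in 5 of 6 libraries. Itga3 at 29.4, Itga7 at 26.4 and Itgb3 at 20.4 FPKM formed a lower level with overlapping ranges between neighbours. Itga1 at 7.998 and Itgav at 4.52 FPKM came last, and Itga1 was the higher of the pair in 5 of 6 libraries. Between neighbours in this order, ranges were separate only for Itga8 over Itgb5, Itga9 over Itga3 and Itgb3 over Itga1.

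**Figure D1:**
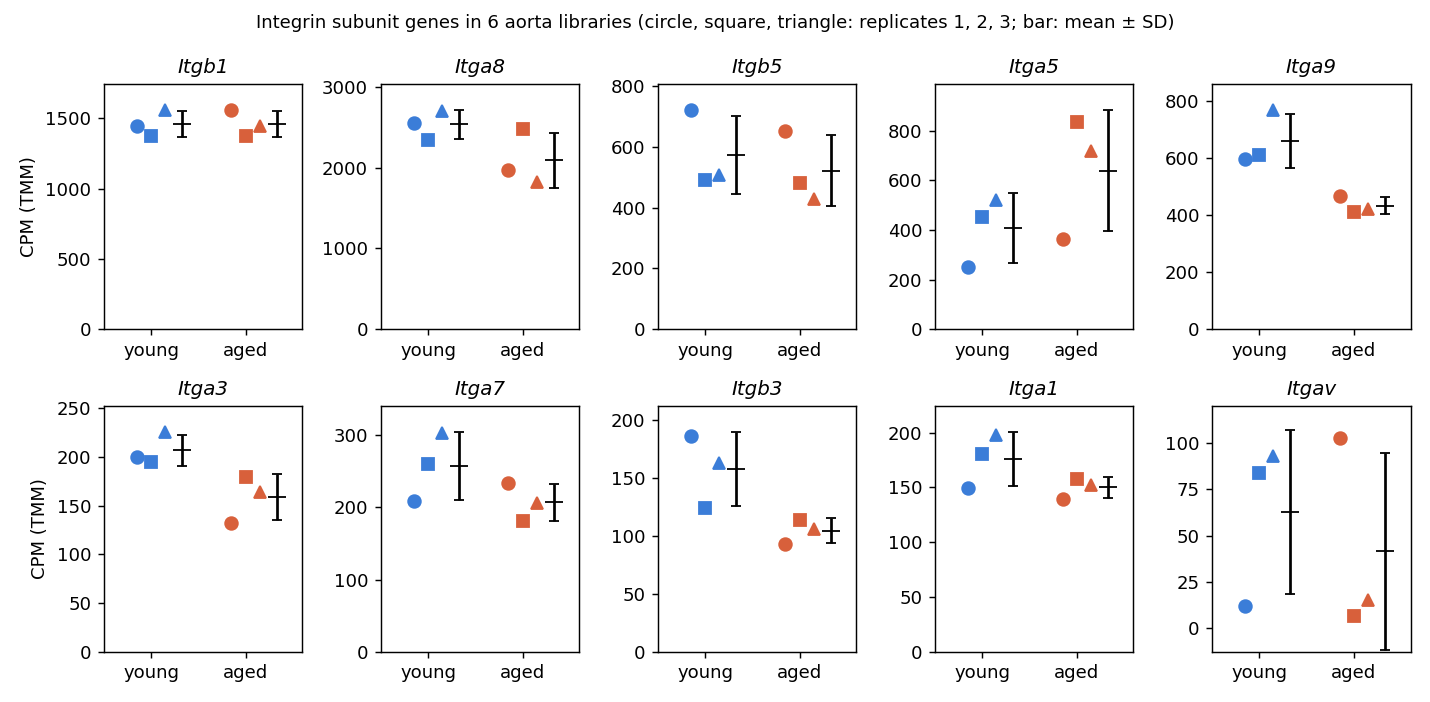
CPM after TMM scaling of the 10 integrin genes in each library, with young mice in blue and aged mice in red, replicates 1, 2 and 3 as circle, square and triangle, and bars for mean ± SD (n = 3). Each panel has its own axis from 0, except that of Itgav, where the SD bar runs below 0. Itga9, Itgb3 and Itga3 have every aged mouse below every young mouse, Itgb1 spans 1374 to 1561 CPM in all mice, and Itgav spans 6.71 to 103 CPM without following age.

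The comparison of aged with young aorta asks which subunit levels differed with age in mice. The test was edgeR's quasi-likelihood F test, with Benjamini-Hochberg adjustment across the whole table. By it, 0 of the 10 integrin genes passed an adjusted p of 0.05, and 0% of all genes tested did so. At an unadjusted p under 0.05 there were 2, both lower in aged aorta, where 10.4% of all genes tested passed in either direction with 5.56% as higher and 4.82% as lower. DESeq2 and limma also called 0 of the 10, while DESeq2 called 2.26% of the 14955 genes to which it gave an adjusted p. The fitted log2 fold change of aged over young was below 0 for 8 of the 10 (9 with library totals or FPKM, which add Itgb1), against 47.9% of all genes. Its median over the 10 was -0.30, beside 0.02 over all genes tested. In 3 of the 10 every aged mouse was lower than every young mouse, against 8.78% of all genes, and in 0 every aged mouse was higher, against 7.74%. Without young replicate 1 and aged replicate 2, the count of genes lower without overlap was 6, with Itga1, Itga7 and Itga8 added, and 25.1% of all genes tested were lower without overlap between 2 and 2 mice. With library totals or FPKM in place of TMM it was 7, with Itgb1 added to those 6. These scalings moved the median of all genes to between -0.22 and -0.12, and 22.2% of all genes were then lower without overlap with library totals and 20.9% with FPKM. The members share cells, libraries and binding partners, so these counts are not counts of independent events.

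**Figure D2:**
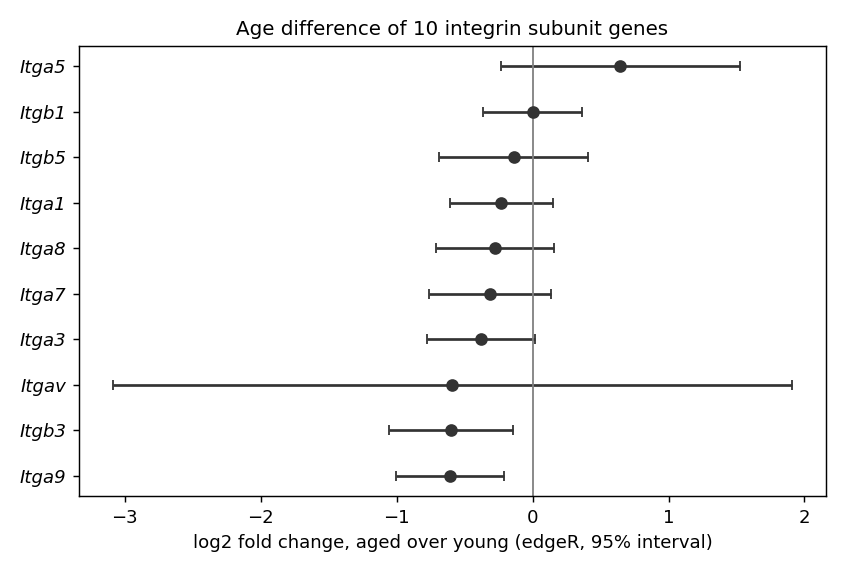
Fitted log2 fold change of aged over young aorta for the 10 integrin genes (points) with 95% intervals (lines) from edgeR's quasi-likelihood fit of 3 against 3 mice. The intervals of Itga9 and Itgb3 lie below 0, that of Itga3 ends at 0.02, and that of Itgav runs from -3.08 to 1.91.

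Among the RGD-binding alpha chains, Itga5 is the classical fibronectin receptor with Itgb1. It lies on chromosome 15 of GRCm38 from 103344286 to 103366763 in GENCODE M21, on the minus strand. Itga5 was at 252, 452 and 521 CPM in young mice 1, 2 and 3 and at 365, 834 and 718 CPM in aged mice 1, 2 and 3. Aged mice 2 and 3 lay above every young mouse, and aged mouse 1 lay below 2 of the young mice. Its fitted log2 fold change of aged over young was 0.64 with an SE of 0.37 and a 95% interval of -0.23 to 1.52, and Itga5 did not pass the test (adjusted p = 0.580, edgeR). The value was 0.93 without aged replicate 1, 0.40 without young replicate 1, 0.41 without aged replicate 2 and 0.16 without both of the latter. Without aged replicate 1 the groups of Itga5 did not overlap, as was so for 12.1% of all genes tested in that direction.

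Itga8 lies on chromosome 2 from 12106632 to 12301922 on the minus strand. Its CPM were 2556, 2346 and 2704 in young mice and 1975, 2475 and 1820 in aged mice. Aged mice 1 and 3 were below every young mouse, and aged mouse 2 lay between young mice 2 and 1. This gave a log2 fold change of -0.28 with an SE of 0.18 (adjusted p = 0.624, edgeR). An antisense gene, E030013I19Rik, overlaps Itga8 and had 5470 to 14104 counts, against 51413 to 123822 for Itga8. Whether counting used strand is not given in the sources used here, so reads of these 2 genes cannot be told apart where they overlap.

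Itgav pairs with Itgb1, Itgb3, Itgb5 and other beta chains and is known for binding vitronectin and latent TGF-beta. It lies on chromosome 2 from 83724397 to 83806916 on the plus strand. Its CPM were 11.7, 83.6 and 92.9 in young mice and 103, 6.71 and 15.4 in aged mice, from raw counts of 569, 2909, 3187, 3418, 253 and 435. The 3 high libraries were young 2, young 3 and aged 1, and the 3 low libraries were young 1, aged 2 and aged 3, so high and low did not follow age. The log2 fold change was -0.59 with an SE of 1.06 (adjusted p = 0.859, edgeR), and it ran to -2.51 without aged replicate 1 and to -0.08 without aged replicate 2. The highest library was 15.3 times the lowest. Of 4143 other genes with a mean CPM within a factor of 2 of Itgav, 28 (0.676%) ranged at least as widely, and their median range was 1.58-fold. The genes that overlap Itgav in GENCODE M21, Gm13684 and Dnmt3l-ps1, had at most 7 counts in a library. Whether all 6 libraries were counted with the same settings and annotation is not given in the sources used here and was not tested, and the CPM and the range of Itgav rest on it.

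**Figure D3:**
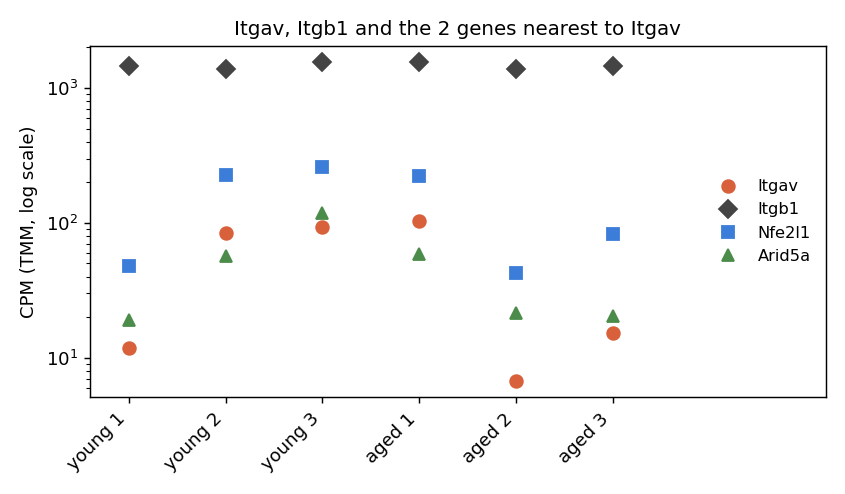
CPM after TMM scaling, on a log axis, of Itgav, of Itgb1 and of the 2 genes nearest to Itgav in pattern (Nfe2l1 and Arid5a) in each of the 6 libraries, with no error bars as each point is 1 mouse. Itgav, Nfe2l1 and Arid5a are high in young 2, young 3 and aged 1 and low in the other libraries, while Itgb1 stays between 1374 and 1561 CPM.

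The genes nearest to Itgav in pattern were found by the root mean square difference of centred log2 CPM over the 6 libraries, among the 14084 genes that averaged 1 CPM or more, a step added after the values of Itgav were seen. The nearest was Nfe2l1, a transcription factor gene, at a distance of 0.56 on the log2 scale. Nfe2l1 was at 47.6, 227 and 258 CPM in young mice and 222, 42.8 and 82.4 CPM in aged mice. Arid5a at 0.82, Rn7s6 at 0.83, Gm23935 at 0.89 and Pot1b at 0.89 followed. These distances are larger than those of the nearest genes to Itgb1 and Itga9 given below.

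Laminin is bound by Itga3 and Itga7 in pairs with Itgb1. Itga3 lies on chromosome 11 from 95044474 to 95076801 on the minus strand. Its CPM were 201, 195 and 225 in young mice and 133, 180 and 164 in aged mice. Every aged mouse was below every young mouse. For Itga3 the log2 fold change was -0.38 with an SE of 0.17 and a 95% interval of -0.78 to 0.02, and the test was not passed (adjusted p = 0.500, edgeR).

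Itga7, the laminin receptor chain of muscle, lies on chromosome 10 from 128933818 to 128958282 on the plus strand. It was at 209, 260 and 303 CPM in young mice and at 233, 181 and 206 CPM in aged mice. Young mouse 1 lay within the aged range, while young mice 2 and 3 lay above it. Itga7 had a log2 fold change of -0.31 with an SE of 0.19 (adjusted p = 0.593, edgeR).

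Collagen is bound by Itga1 with Itgb1. Itga1 lies on chromosome 13 from 114953096 to 115101964 on the minus strand, and holds the gene Pelo, which had 287 to 506 counts, on the same strand. Its CPM were 150, 180 and 198 in young mice and 139, 158 and 152 in aged mice. Young mouse 1 again lay within the aged range. Itga1 had a log2 fold change of -0.23 with an SE of 0.16 (adjusted p = 0.638, edgeR).

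Itga9, which pairs with Itgb1 and binds tenascin-C, VCAM-1 and a splice form of fibronectin, had the smallest p of the 10. It lies on chromosome 9 from 118606690 to 118901003 on the plus strand. Its CPM were 596, 611 and 767 in young mice and 467, 409 and 422 in aged mice. The highest aged mouse was below the lowest young mouse. Young mice averaged 658 ± 94.9 CPM and aged mice 433 ± 30.4 CPM (each SD, n = 3), and the fitted level was 1.52-fold lower in aged mice. The log2 fold change was -0.61 with an SE of 0.17 and a 95% interval of -1.002 to -0.21. Its adjusted p was 0.377 by edgeR and 0.058 by DESeq2, so neither passed 0.05. Leaving out 1 library at a time moved the log2 fold change between -0.66 and -0.47. The antisense gene Gm2415 and the pseudogene Gm10157, both on the opposite strand, overlap it with at most 699 counts, against at least 11930 for Itga9.

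Over the 6 libraries, the genes with patterns most like that of Itga9 were Cfap20 at a distance of 0.07 on the log2 scale, Zbtb40 at 0.07, 2310022A10Rik at 0.07, Cpne2 at 0.08 and Kif7 at 0.08. Cfap20 was at 21.7, 23.9 and 28.1 CPM in young mice and 18.8, 15.9 and 17.7 CPM in aged mice. Cpne2, the most abundant of these 5 by CPM, was at 44.4, 43.3 and 53.4 CPM in young mice and 30.5, 31.6 and 29.8 CPM in aged mice. No other integrin gene was among them.

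The beta chains differed from each other. Itgb3, which pairs with Itgav and, in platelets, with Itga2b, lies on chromosome 11 from 104608000 to 104670476 on the plus strand. It was at 187, 124 and 163 CPM in young mice and at 92.8, 114 and 106 CPM in aged mice. All 3 aged mice were below all 3 young mice, with young mouse 2 nearest to the aged range. For Itgb3 the log2 fold change was -0.60 with an SE of 0.19 and a 95% interval of -1.05 to -0.14, and the adjusted p was 0.400 by edgeR and 0.182 by DESeq2. Since platelets also carry Itgb3, 5 platelet markers were read beside it: their summed level was 14.5, 45.2 and 40.8 CPM in young mice and 20.0, 21.6 and 40.8 CPM in aged mice. The groups of summed platelet markers overlapped. By single marker, 2 of the 5 had a log2 fold change above 0 and 3 below, with a median of -0.42. Itga2b had a log2 fold change of -0.56, and its groups overlapped (adjusted p = 0.763, edgeR). The part of platelets in the Itgb3 values was not tested.

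Itgb5, a vitronectin receptor chain that pairs with Itgav, lies on chromosome 16 from 33829665 to 33949338 on the plus strand. It was at 722, 492 and 509 CPM in young mice and at 653, 483 and 429 CPM in aged mice. Replicate 1 was the highest of each group. The log2 fold change was -0.14 with an SE of 0.23 (adjusted p = 0.848, edgeR), and it turned to 0.07 without young replicate 1.

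Itgb1 lies on chromosome 8 from 128685654 to 128733200 on the plus strand. It was at 1448, 1376 and 1558 CPM in young mice and at 1561, 1374 and 1448 CPM in aged mice. The means were 1461 ± 91.4 (SD, n = 3) and 1461 ± 94.2 CPM (SD, n = 3), so both groups covered the same range. The log2 fold change was 0.0002 with an SE of 0.16 and a 95% interval of -0.36 to 0.36. This interval allows a level up to about that much higher or lower in aged mice, and with library totals in place of TMM the value was -0.24, beside a median of -0.22 over all genes under that scaling. The highest library was 1.14 times the lowest. All 77 other genes with a mean CPM within a factor of 2 of Itgb1 ranged at least as widely, with a median range of 1.79-fold. Itga5, with a range of 3.31-fold, was wider than all but 29 of the 325 genes of its level.

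The pattern of Itgb1 over the 6 libraries was nearest to those of Txndc9 at 0.02, Parp2 at 0.03, Rassf8 at 0.03, Mtmr11 at 0.03 and Pknox2 at 0.03 on the log2 scale. Txndc9 was at 46.9, 43.4 and 49.0 CPM in young mice and 48.5, 42.9 and 46.3 CPM in aged mice. Each of these 5 genes, like Itgb1, had its lowest 3 libraries spread over both ages. No other integrin gene was among the nearest 5.

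Shares within a library do not depend on scaling between libraries, so the makeup of the integrin chains was read as the share of summed FPKM. The shares of a mouse add up to the whole, so a higher share of some chains lowers that of others. Differences in share below are thus not independent results. The RGD-binding chains Itga5, Itga8 and Itgav together took 73.2%, 72.9% and 72.0% of the summed FPKM of the 7 alpha chains in young mice and 74.5%, 81.4% and 77.1% in aged mice. Every aged mouse was above every young mouse, by 4.98 percentage points on average (exact two-sided permutation test, p = 0.1, the smallest that 3 against 3 mice allow, and 0.175 after Benjamini-Hochberg adjustment over 7 shares). Without aged replicate 2 the difference was 3.11 percentage points. Of the 7 alpha chains together, Itga5 alone took 9.38%, 16.0% and 15.8% in young mice and 15.7%, 27.2% and 28.5% in aged mice, with aged mouse 1 inside the young range. Itga8 took 63.6%, 55.5% and 54.9% in young and 56.8%, 54.1% and 48.3% in aged mice. The ratio of Itga8 to Itga5 FPKM was 6.78, 3.47 and 3.47 in young mice and 3.62, 1.98 and 1.69 in aged mice, so aged mice 2 and 3 lay below the young range and aged mouse 1 within it.

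Itga9 took 14.2%, 13.8% and 14.9% of alpha chain FPKM in young mice and 12.9%, 8.54% and 10.7% in aged mice. Each aged share was below each young share, by 3.61 percentage points on average (exact two-sided permutation test, p = 0.1; adjusted 0.175). The laminin-binding chains Itga3 and Itga7 took 11.2% to 11.6% in young and 8.68% to 11.04% in aged mice, also without overlap (exact p = 0.1; adjusted 0.175). Their mean difference of -1.30 percentage points was -0.59 without aged replicate 2. From raw counts, not per length, the laminin share was 0.83 percentage points lower in aged mice and its exact p was 0.4. The collagen-binding chain Itga1 averaged 1.58% ± 0.11 in young mice against 1.51% ± 0.13 in aged mice (each SD, n = 3; exact permutation p = 0.6).

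Of the summed FPKM of the 3 beta chains, Itgb1 took 60.2%, 67.9% and 69.1% in young mice and 65.7%, 68.4% and 71.9% in aged mice. The groups overlapped (exact permutation p = 0.5; adjusted 0.6), and the mean difference of 2.97 percentage points was 0.20 without young replicate 1. Itgb3 took 5.36%, 4.22% and 4.997% in young mice and 2.70%, 3.93% and 3.63% in aged mice, with no overlap (exact permutation p = 0.1; adjusted 0.175). For Itgb5 the share averaged 29.4% ± 4.48 in young mice against 27.9% ± 3.56 in aged mice (each SD, n = 3; exact permutation p = 0.6).

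**Figure D4:**
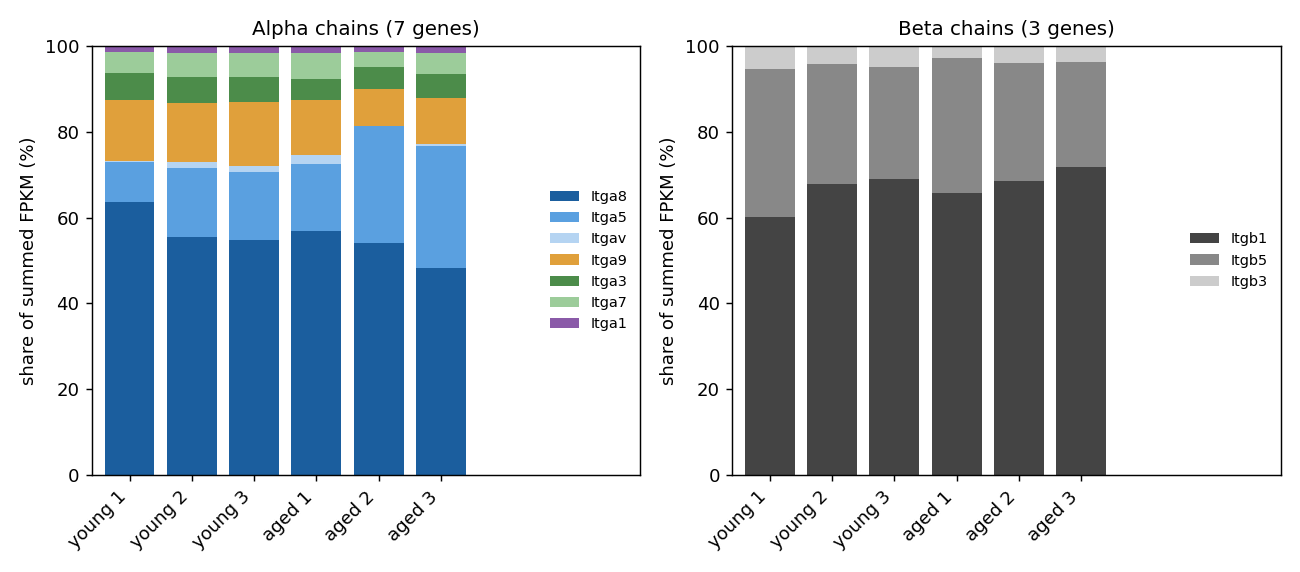
Stacked bars of the share (%) of each alpha chain in the summed FPKM of 7 alpha chains (left) and of each beta chain in that of 3 beta chains (right), 1 bar per mouse, so there are no error bars. Blue shades are RGD-binding chains, orange is Itga9, green shades are laminin-binding chains and purple is Itga1. The blue part reaches 72.0% to 73.2% in young and 74.5% to 81.4% in aged mice.

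The other integrin subunits were low in these aortas. Of 17 rows for 16 symbols, 14 passed the filter on low counts, and their mean FPKM ran from 0.06 for Itgae, a subunit of lymphocytes within epithelia, to 5.03 for Itga10, a collagen-binding chain. Itga10 was thus the only one of them above the lowest of the 10 described here. Itgax, Itgad and Itgb6 did not pass, with at most 11 counts in a library. Of the 14, 6 had a fitted log2 fold change above 0 and 8 below, with a median of -0.09. By edgeR 0 passed the adjusted test and 2 passed at an unadjusted p under 0.05, against 10.4% of all genes tested. DESeq2 called 1, against 2.26% of the genes to which it gave an adjusted p. The one called, also the smallest p by edgeR, was Itgam (ENSMUSG00000030786, 1 of 2 rows of that name), a chain of myeloid cells. It was at 1.05, 0.40 and 0.35 CPM in young mice and 5.06, 3.76 and 4.39 CPM in aged mice. Every aged mouse was above every young mouse, and the log2 fold change was 2.85 with an SE of 0.50 (adjusted p = 0.306 by edgeR and 3.2e-05 by DESeq2). The second Itgam row (ENSMUSG00000108596) was at 0.41, 0.69 and 0.99 CPM in young mice and 3.28, 0 and 3.57 CPM in aged mice. In that row the groups overlapped, with a log2 fold change of 1.71 (adjusted p = 0.661, edgeR). Whether reads of Itgam were divided between its 2 rows was not tested. The other gene with an unadjusted p under 0.05, Itga10, was lower. Itga10 was at 37.0, 32.4 and 38.7 CPM in young mice and 15.3, 28.8 and 16.1 CPM in aged mice, each aged mouse below each young one, with a log2 fold change of -0.84 (SE 0.26; adjusted p = 0.390, edgeR). Itgb4, a laminin receptor chain of epithelia, Schwann cells and some endothelia, was at 61.8 CPM in aged mouse 3 and between 8.96 and 16.1 CPM in the others. Summed endothelial markers were also highest in that library, at 1560 CPM against 323 to 464, and their part in the Itgb4 value was not tested.

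Ligands of these receptors were read from a list of 27 matrix and cell-surface genes, all of which passed the filter. Of these, 9 had a log2 fold change above 0 and 18 below, with a median of -0.22. None passed the adjusted test by edgeR. At an unadjusted p under 0.05 there were 2 higher and 1 lower, against 5.56% and 4.82% of all genes tested. Ligands without overlap were 2 higher (Lamb1 and Vcam1) and 3 lower (Fn1, Vtn and Col4a1), against 7.74% and 8.78% of all genes tested. Fn1, which encodes fibronectin, was at 1449, 1355 and 1852 CPM in young mice and 1276, 1033 and 1248 CPM in aged mice. Its log2 fold change was -0.39 with an SE of 0.19 (adjusted p = 0.529, edgeR). DESeq2 called 1, Lamb1, against 2.26% of the genes to which it gave an adjusted p. Lamb1, a laminin beta chain, was at 13.4, 14.5 and 11.3 CPM in young mice and 33.5, 21.8 and 31.3 CPM in aged mice. All aged mice were above all young mice, and the log2 fold change was 1.14 with an SE of 0.21 (adjusted p = 0.325 by edgeR and 0.00179 by DESeq2). Lamb1 averaged 1.86 FPKM. Lamb2, the other laminin beta chain of the list, averaged 129 FPKM. The groups of Lamb2 overlapped, with a log2 fold change of -0.22 (adjusted p = 0.682, edgeR). Vcam1, a ligand of Itga9 and Itga4, was at 41.5, 35.6 and 39.0 CPM in young mice and 83.4, 45.6 and 149 CPM in aged mice, without overlap (log2 fold change 1.26, SE 0.39; adjusted p = 0.390, edgeR). Tnc, which encodes the Itga9 ligand tenascin-C, was at 94.1, 187 and 261 CPM in young mice and 91.4, 107 and 98.0 CPM in aged mice. Young mouse 1 lay inside the aged range, and the log2 fold change was -0.87 with an SE of 0.34 (adjusted p = 0.449, edgeR). The ligands with the highest FPKM were Postn at 226, Col3a1 at 215 and Col1a1 at 176 FPKM on average, which encode periostin and fibrillar collagens. Their groups overlapped, with log2 fold changes of -0.28, -0.28 and 0.17 and adjusted p of 0.715 to 0.882 by edgeR.

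On the inner side of the membrane, 28 of 29 adaptor genes passed the filter, and Fermt1 had 0 counts in every library. Of the 28, 10 had a log2 fold change above 0 and 18 below, with a median of -0.18. By edgeR 0 passed the adjusted test and 3 passed at an unadjusted p under 0.05, all lower. Of all genes tested, 4.82% did so as lower and 10.4% in either direction. DESeq2 called 0 of the adaptors. Flna, the actin crosslinker filamin A that binds beta chain tails, was at 7737, 9264 and 9598 CPM in young mice and 5397, 6013 and 6246 CPM in aged mice. Tln1, encoding the integrin activator talin, was at 632, 622 and 787 CPM in young and 469, 483 and 476 CPM in aged mice. Vcl, encoding vinculin, was at 380, 379.7 and 534 CPM in young and 169, 335 and 268 CPM in aged mice. In all 3 genes every aged mouse was below every young mouse, with log2 fold changes of -0.59 for Flna, -0.52 for Tln1 and -0.75 for Vcl (adjusted p = 0.390, 0.390 and 0.443, edgeR). Adaptors without overlap numbered 5, all lower, against 8.78% of all genes tested. Actn1 and Ilk, the most abundant after Flna by FPKM at 161 and 116, had groups that overlapped and log2 fold changes of -0.21 and -0.30.

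Among 7 genes listed as membrane partners of integrins, 6 had a log2 fold change above 0 and 1 below, with a median of 0.05. Of all genes tested, 47.9% were below 0. By edgeR and by DESeq2, 0 of the 7 passed the adjusted test. Itgbl1, listed here although it encodes a secreted protein with repeats like those of beta chains, was at 202, 240 and 262 CPM in young mice. In aged mice it was at 467, 302 and 375 CPM. Each aged mouse was above each young one, and the log2 fold change was 0.70 with an SE of 0.21 (adjusted p = 0.383, edgeR). Cav1, encoding the coat protein of caveolae, was at 78.5, 66.5 and 75.8 CPM in young mice and 34.4, 45.3 and 59.5 CPM in aged mice. Here every aged mouse was lower, with a log2 fold change of -0.67 and an SE of 0.22 (adjusted p = 0.403, edgeR). The tetraspanins Cd151, Cd9 and Cd81 overlapped between groups, with log2 fold changes of 0.15, 0.02 and 0.04.

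**Figure D5:**
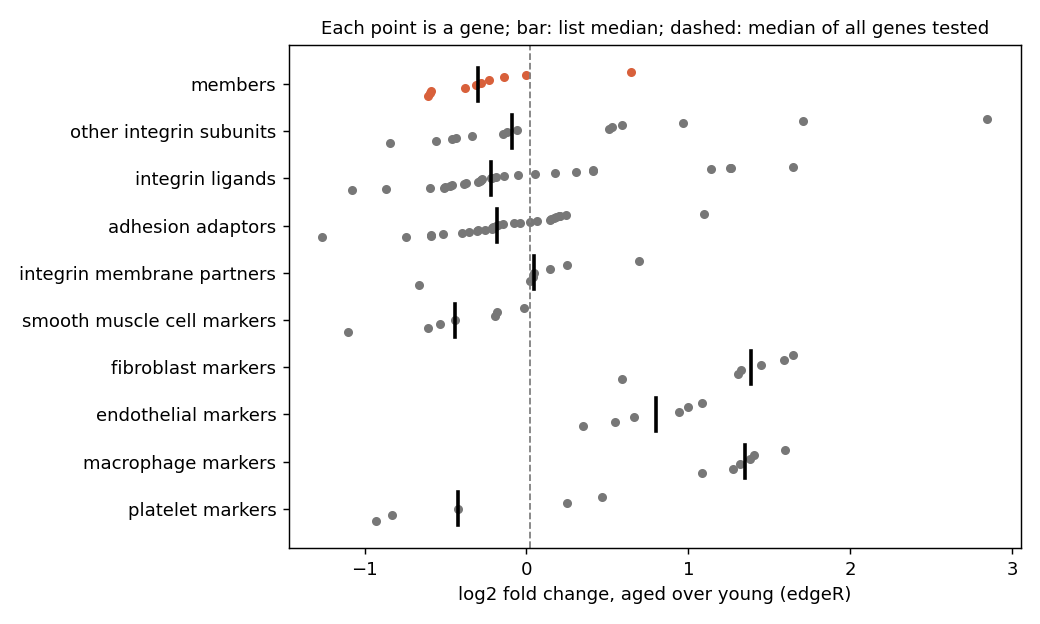
Fitted log2 fold change of aged over young aorta for each gene tested (points) of the 10 integrin genes (red) and of 9 other lists (grey), with the list median as a bar and the median of all 16612 genes, 0.02, as a dashed line. The medians are -0.30 for the 10 integrin genes, -0.22 for ligands, -0.18 for adaptors, -0.44 for smooth muscle markers and 1.39 for fibroblast markers.

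Markers of the cell types of the wall were read in the same libraries, and their part in the integrin values was not tested. All 7 smooth muscle markers had a log2 fold change below 0, with a median of -0.44, and 0 passed the adjusted test. Their summed level was 32254 to 40198 CPM in young and 27985 to 33335 CPM in aged mice. All 6 fibroblast markers had a log2 fold change above 0, with a median of 1.39 and 0 past the adjusted test by edgeR. Their summed level was 1126 to 1523 CPM in young mice and 4942, 1118 and 3900 CPM in aged mice 1, 2 and 3, so aged mouse 2 stood below every young mouse. Of single markers in that mouse, Pi16 and Lum were the lowest of the 6 libraries, while Dpt and Pdgfra were above every young mouse. Dcn and Col14a1 lay within the young range there. The same mouse had the lowest Itga9 and the highest Itga5 of the 6 libraries. DESeq2 called 2 of the fibroblast markers and 3 of the 6 macrophage markers, against 2.26% of the genes to which it gave an adjusted p. The macrophage markers all had a log2 fold change above 0, with a median of 1.35 and 0 past the adjusted test by edgeR. Summed macrophage markers were at 85.6 to 112 CPM in young mice and 116 to 369 CPM in aged mice. The 6 endothelial markers had a median of 0.80, but their summed level was high in aged mouse 3 alone, at 1560 CPM. In aged mice 1 and 2 it was 355 and 323 CPM, below the 379.5 to 464 CPM of young mice. By single marker, 1 of the 6, Emcn, had every aged mouse above every young mouse, and 0 had every aged mouse below. Emcn was at 6.29 to 10.4 CPM in young mice and 10.97 to 23.4 CPM in aged mice. Its log2 fold change was 1.08 (adjusted p = 0.395, edgeR).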

How the data were processed

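The deposited count table gives whole numbers of reads per gene in 6 mouse aorta libraries, without normalization. The authors also deposited FPKM, a measure scaled for gene length and library total. For some genes of few counts, such as Wt1, FPKM did not follow the deposited counts exactly. The submitters' processing notes name the build mm10. RNA was sequenced single-ended after a SMARTER library kit, and the aligner, the counting tool and its use of strand are not given in the sources used here. Of 55335 gene identifiers, 55154 were found in GENCODE M21, from which GRCm38 positions were taken.

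In R 4.3.3, genes with low counts were removed by the filterByExpr function of edgeR 4.0.16 (minimum count 10, minimum total 15, grouped by age). The rest were scaled by TMM and fitted by quasi-likelihood without covariates, with Benjamini-Hochberg adjustment over 16612 genes and a threshold of 0.05. Steps were tested on simulated data. The integrin genes and all gene lists were chosen with earlier results of these data known. Named genes were the integrin subunits, the 3 of each list with the smallest p and the 3 with the highest mean FPKM, and the 5 nearest in pattern to Itgb1 and to the integrin gene with the smallest p. Genes nearest to Itgav, the adaptor Fermt1, the ligands Lamb2, Fn1, Vtn and Col4a1, and single cell type markers were named after values were seen. Shares of FPKM were compared by exact two-sided permutation tests, whose smallest p is 0.1.

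Alternatives were other scalings and filters, robust fitting, a replicate block, DESeq2 1.42.0, log2 FPKM plus 1 or 0.1 fitted by limma 3.58.1, raw-count shares and each library left out. Leaving out both libraries that stood apart, or the mitochondrial genes, was added after the data were seen. Aged replicate 2 was singled out partly for lying nearer to a young library than to other aged ones. Leaving it out can by itself lessen the overlap of the groups. The labels number the replicates and do not say that same-numbered mice were paired. Same-numbered libraries had correlations of 0.08 to 0.12 between their deviations from group means. No other pairs were compared, so these values cannot show whether same-numbered mice shared a batch.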

Additional observations from a re-analysis of the deposited data

How the results depend on the processing

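With 3 mice a group and 1 library each, 0 of the 10 integrin genes passed the adjusted test under all 17 alternatives, and 8 of the 10 kept the sign of their log2 fold change in each. The exceptions were Itgb1 and Itgb5. Itgb1, at 0.0002, was at -0.24 with library totals, -0.0056 with no filter, -0.22 and -0.22 by limma with pseudocounts of 1 and 0.1, -0.0047 without mitochondrial genes, and from -0.0502 to 0.0568 with 1 library left out, with -0.0319 without young replicate 2 and -0.0502 without aged replicate 1. Itgb5 was at -0.14, from -0.33 to 0.0661 with 1 library left out (0.0661 without young replicate 1), and at 0.11 without young replicate 1 and aged replicate 2. Library totals and FPKM moved the median of all genes to -0.22 and to -0.12 or -0.19, and under each of these 7 of the 10 genes were lower without overlap, where TMM gave 3, and 20.9% to 22.2% of all genes were, where TMM gave 8.78%. That count was 6 without young replicate 1 and aged replicate 2 (25.1% of all genes), and 3 to 5 with 1 library left out (5 without young replicate 1, with 16.9% of all genes, and 5 without aged replicate 1, with 13.5%). The count higher without overlap was 0 to 1, with 1 (Itga5) without aged replicate 1, where 12.1% of all genes were. Over all genes, edgeR called 0, DESeq2 called 338, and leaving out 1 library gave 0 to 110, with 110 without aged replicate 2. Each alternative refitted the data with other samples, scaling, filters or methods, and the causes of these differences were not tested.

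The differences in share (aged minus young, in percentage points) kept their sign with 1 library left out for the RGD class at 3.11 to 6.55, Itga9 at -4.68 to -2.53, the laminin class at -1.77 to -0.59 and Itgb1 at 0.20 to 4.66. The share of Itga1 ranged from -0.12 to 0.0081 and turned above 0 without aged replicate 2. With replicate number as a block, 0 genes and 0 of the 10 were called, and 3 of the 10 instead of 2 had an unadjusted p under 0.05. Itga5 was the added gene, with an unadjusted p of 0.0124 by edgeR with the block and 0.127 without it. With the block this was the smallest of the 10, ahead of Itga9 at 0.0171 (adjusted p = 0.435 and 0.438, edgeR). Same-numbered libraries had correlations of 0.08, 0.12 and 0.10 between their deviations from group means. These cannot decide whether the numbers paired the mice.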

Other observations

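The split of the libraries seen in Itgav, with young 2, young 3 and aged 1 on one side and young 1, aged 2 and aged 3 on the other, was looked for in overlapping gene models on chromosome 2, which were chosen after their values were seen. Gm20716 is a gene model that spans Adnp and Dpm1 on the same strand of GRCm38, from 168180986 to 168230364. Gm20716 had 0, 2903 and 2657 counts in young mice 1, 2 and 3 and 2404, 232 and 0 counts in aged mice 1, 2 and 3. Adnp, a homeobox transcription factor gene, had 3279, 0 and 2 counts in young mice and 4, 6 and 1602 counts in aged mice. Dpm1, a subunit gene of dolichol-phosphate mannose synthase, had 1320, 245 and 391 counts in young mice and 251, 1095 and 720 counts in aged mice. Counts of Gm20716 were thus high in the 3 libraries where Itgav was high, and counts of Dpm1 were high in the 3 where Itgav was low. Adnp did not follow the whole split, since aged mouse 2, where Itgav was low, had 6 counts of it. Itgav itself overlaps no gene with more than 7 counts in a library, and a link between these values was not tested. Whether the libraries were counted with the same settings and annotation is not given in the sources used here.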
